A study of Rattus norvegicus with 4 samples.

Results

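The genes examined here serve the energy supply of striated muscle, and their expression was compared in the middle ear mucosa of rats inoculated with methicillin-resistant Staphylococcus aureus (MRSA), Pseudomonas aeruginosa (PA), both species or medium. The 10 genes were CKM, CKMT2, AMPD1, PYGM, PGAM2, ENO3, MB, CA3, FABP3 and COX6A2. They were found by gene name among 27832 features of the expression table, and each name matched 1 row. Sprague-Dawley rats, whose age is not given in the sources used here, had 50 µL of medium alone (Media), of MRSA, of PA or of a mixed culture of both species (MRSA + PA) injected into the right middle ear, across the eardrum. The mucosa was scraped from the bulla 1 week later, and its polyadenylated RNA was sequenced as 1 library per condition, 4 libraries in all. The sources do not say if RNA was pooled over rats before a library was made. The inoculum of each library follows its title, because the protocol text of every sample describes MRSA. The comparison with Media addresses how colonization by either species, alone or together, alters expression in the mucosa.

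Striated muscle buffers its ATP with phosphocreatine, breaks down its own glycogen for rapid work, and burns fat and pyruvate in mitochondria for sustained work. For many of these steps it uses a gene copy of its own, whereas most other tissues use a close relative. The muscle copies are therefore familiar tissue markers, and several of their proteins, such as creatine kinase and myoglobin, are measured in blood as signs of muscle damage. Some of the 10 genes are also used elsewhere: CA3 in fat cells and rodent liver, FABP3 in heart, brown fat, mammary gland and brain, and COX6A2 and CKMT2 in heart. Values are given in FPKM, a read measure that adjusts for transcript length and library size.

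All 10 genes were lower in each inoculated library than in Media. Their summed level was 3691 FPKM in Media, 1417 with MRSA, 45.1 with PA and 42.8 with both species. MRSA thus held 38.4% of the Media sum, PA held 1.22% and MRSA + PA held 1.16%. In MRSA the 10 genes were lower to a similar extent, whereas in PA the level of a single gene ranged from 0.0182% to 10.5% of that in Media. With 1 library per condition there is no replicate error and no test was possible, so every difference below is one between 2 libraries. The paper's real-time PCR did not measure the 10 genes. It measured ACTA1, MYH1 and MYOM2 of muscle fibres and GPD1, and put each further below the control with MRSA than with PA. The FPKM of these genes go the other way, being lower with PA than with MRSA. In such bulk tissue, fewer muscle fibres in the sample and less RNA per fibre cannot be told apart.

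The start regions of the genes are shown as background on genes that were picked for their use in muscle. The part of any motif in their lower levels was not tested. A promoter sequence in the RefSeq annotation of the rat assembly GRCr8 was matched for 9 of the 10 genes, all except CA3. CAGCTG is an E-box, a short site of the kind bound by the myogenic factors MyoD and myogenin. It occurred within the 250 bases before the annotated start of 5 of the 9 genes, against 11.9% of 27457 promoters of the same length. The general E-box CANNTG, of which CAGCTG is one form, was found in 9 of the 9, against 65.2% of all promoters. Both motifs read the same on either strand. The last 150 bases before the start are given for the 5 genes with CAGCTG, in capitals, and for MB, the most abundant of the 10 genes in Media, in which it was not found.
CKM (chr1:88189311-88189460, plus strand): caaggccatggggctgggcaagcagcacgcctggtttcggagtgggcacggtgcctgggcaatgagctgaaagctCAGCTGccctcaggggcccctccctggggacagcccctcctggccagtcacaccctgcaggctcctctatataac
CKMT2 (chr2:24845512-24845661, minus strand): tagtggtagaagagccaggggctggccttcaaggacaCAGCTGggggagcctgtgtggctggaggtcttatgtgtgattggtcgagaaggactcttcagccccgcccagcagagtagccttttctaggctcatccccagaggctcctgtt
PYGM (chr1:213119655-213119804, plus strand): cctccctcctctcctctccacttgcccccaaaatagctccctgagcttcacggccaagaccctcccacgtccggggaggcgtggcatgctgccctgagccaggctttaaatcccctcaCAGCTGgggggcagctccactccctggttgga
PGAM2 (chr14:84897875-84898024, minus strand): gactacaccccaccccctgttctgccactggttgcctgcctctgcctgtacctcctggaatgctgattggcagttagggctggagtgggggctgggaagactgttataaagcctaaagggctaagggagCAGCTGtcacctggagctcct
COX6A2 (chr1:192219717-192219866, minus strand): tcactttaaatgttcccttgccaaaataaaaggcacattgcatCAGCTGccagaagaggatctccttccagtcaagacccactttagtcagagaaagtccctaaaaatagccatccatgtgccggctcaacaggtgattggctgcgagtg
MB (chr7:110647743-110647892, minus strand): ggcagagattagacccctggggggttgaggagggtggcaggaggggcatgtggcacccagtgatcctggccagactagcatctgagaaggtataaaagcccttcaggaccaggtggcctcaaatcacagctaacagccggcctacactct
Counted back from the start, where -1 is the last base before it, CAGCTG began at -75 in CKM, -113 in CKMT2, -32 in PYGM, -21 in PGAM2 and -107 in COX6A2, and a further copy lay farther upstream in CKM, PYGM and PGAM2. A match to the MEF2 box, the site of another muscle transcription factor, was found in AMPD1 and COX6A2, 2 of the 9 genes, against 3.07% of all promoters. These matches describe letters in a window and were not measured as sites of binding. Genes with and without CAGCTG were both among those with the least RNA left in PA, such as CKM and MB, and both among those with the most, such as PYGM and FABP3.

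The creatine kinases pass phosphate between ATP and creatine, CKM in the cytosol at the myofibrils and CKMT2 at the inner mitochondrial membrane. CKM (chromosome 1, 81587880 to 81598112) had 1028 FPKM in Media and 409 with MRSA, and 0.187 with PA and 0.0901 with both species. It went from the second most abundant of the 10 genes in Media and MRSA to the eighth in PA and MRSA + PA. CKMT2 (chromosome 2, 40627930 to 40657567) had 65.3 FPKM in Media, 23.5 in MRSA and 0.0569 in PA, and was listed at 0 in MRSA + PA. The ratio of CKM to CKMT2 was 15.7 in Media and 17.4 in MRSA, so both kinases were lower by nearly the same factor with MRSA. AMPD1 (chromosome 2, 224999535 to 225020451), the muscle AMP deaminase that clears AMP during hard work, was the least abundant of the 10 in Media. It had 15.6 FPKM in Media, against 6.54 with MRSA, 0.0410 with PA and 0.0420 with both species. These 3 genes thus stood at or under 0.187 FPKM in both libraries that received PA.

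**Figure D1:**
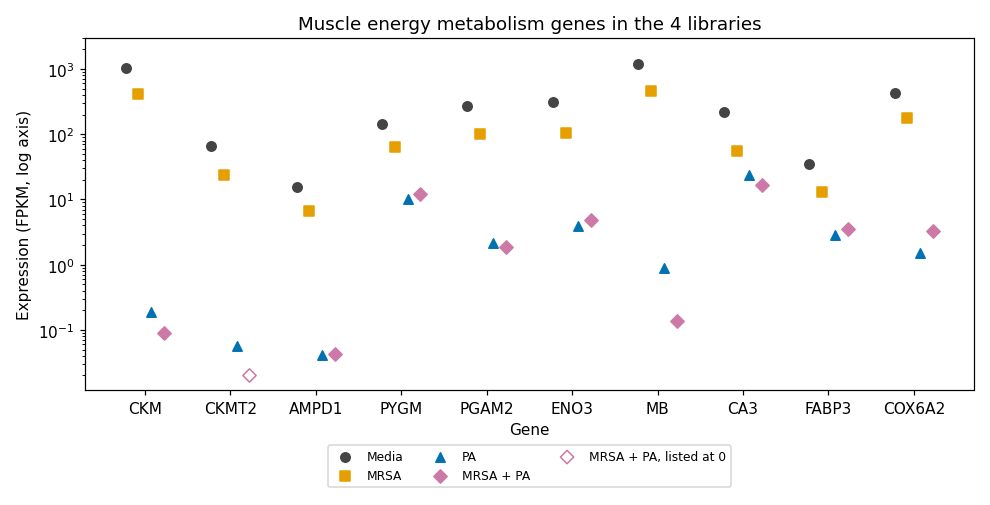
Expression of the 10 genes (FPKM, log axis) in the Media, MRSA, PA and MRSA + PA libraries, 1 point per library; the open diamond marks CKMT2, which is listed at 0 in MRSA + PA. MRSA lies below Media for every gene, at 25.1% (CA3) to 44.7% (PYGM) of it. PA and MRSA + PA lie lower still, and their values above 0 run from 23.3 FPKM for CA3 to 0.0410 for AMPD1, both in PA.

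Glycogen phosphorylase PYGM, which releases glucose units from muscle glycogen, kept far more of its level than the creatine kinases. PYGM (chromosome 1, 228743990 to 228758930) had 142 FPKM in Media, 63.6 with MRSA, 10.2 with PA and 12.3 with both species. The libraries with PA thus held 7.18% and 8.66% of its Media level. PGAM2 (chromosome 14, 86736789 to 86738938), the muscle phosphoglycerate mutase, had 270.0 FPKM in Media and 101 with MRSA, and 2.11 with PA and 1.87 with both species. ENO3 (chromosome 10, 57023888 to 57029247), the beta-enolase that follows PGAM2 in glycolysis, had 312 FPKM in Media, against 105 with MRSA, 3.97 with PA and 4.83 with both species. These consecutive enzymes stood in a ratio of 1.15 (ENO3 over PGAM2) in Media, 1.05 with MRSA, 1.88 with PA and 2.59 with both species. For both, about 1% of the Media level was left with PA, between the creatine kinases and PYGM.

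MB, CA3 and FABP3 are abundant binding proteins and enzymes of the muscle cytosol, and their levels differed widely in the libraries with PA. MB (chromosome 7, 118094391 to 118101652), myoglobin, stores oxygen and had 1177 FPKM in Media and 461 with MRSA, and 0.888 with PA and 0.138 with both species. CA3 (chromosome 2, 107900583 to 107910102), carbonic anhydrase 3 of slow muscle fibres and fat cells, had 222 FPKM in Media, against 55.8 with MRSA, 23.3 with PA and 16.7 with both species. FABP3 (chromosome 5, 152246244 to 152253006) carries fatty acids to the mitochondria and had 34.9 FPKM in Media, 12.8 with MRSA, 2.85 with PA and 3.55 with both species. MB was the highest of the 10 genes in Media and the seventh in PA, whereas CA3 was the sixth in Media and the highest in PA. COX6A2 (chromosome 1, 206669984 to 206670730), the striated muscle form of a subunit of cytochrome c oxidase, had 424 FPKM in Media and 179 with MRSA, and 1.51 with PA and 3.33 with both species. The positions are those of the expression table, whose genome build is not given in the sources used here.

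CA3, PYGM and FABP3 together made up 10.8% of the summed level of the 10 genes in Media and 9.33% in MRSA. They made up 80.6% in PA and 76.0% in MRSA + PA. CA3 alone went from 6.02% of the sum in Media to 51.6% in PA and 38.9% in MRSA + PA. CKM and MB together dominated the sum in Media, with 27.9% and 31.9%, and held 0.415% and 1.97% of it in PA. The order of the 10 genes was nearly the same in Media and MRSA, where only PYGM and CA3 changed places.

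With MRSA, the log2 differences from Media lay in a narrow range. They were computed after adding 0.1 FPKM to both values and ran from -1.16 for PYGM to -1.99 for CA3, with a median of -1.39. Of the 10 genes, 10 lay at least 2-fold below Media and 0 above it, against 4.95% and 8.47% of the 15944 features averaging at least 1 FPKM, whose median difference was 0.05. All 10 genes passed that minimum, 6 with at least 1 FPKM in every library and 4 (CKM, CKMT2, AMPD1 and MB) only through Media and MRSA. Asking for a log2 difference of at least 1.5 left 2 of the 10, ENO3 at -1.57 and CA3. The ratio of CKM to MB was 0.874 in Media and 0.886 in MRSA. CA3 stood lowest, at 25.1% of its Media level, while the other 9 genes lay between 33.8% and 44.7%.

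CA3 also differed from the other genes when the level in PA was subtracted first. The MRSA level above PA was 16.3% of the Media level above PA for CA3, 31.1% for FABP3 and 32.9% for ENO3. The other 7 genes lay between 35.9% for CKMT2 and 41.9% for COX6A2. Subtracting the MRSA + PA level instead gave 19.02% for CA3 and 29.5% for FABP3. Markers of fat cells went both ways in MRSA. ADIPOQ, which encodes adiponectin, stood at 35.4 FPKM in Media, against 6.79 with MRSA, 1.14 with PA and 0.271 with both species. FABP4 had 113 FPKM in Media and 264 with MRSA, and LPL had 46.3 and 142. Of 10 fat cell markers with a mean of at least 1 FPKM, 5 were at least 2-fold lower than Media with MRSA, 4 with PA and 5 with both species, and 2, 0 and 0 were higher. For all features the shares were 4.95%, 7.8% and 7.83% lower and 8.47%, 10% and 7.78% higher. The summed level of the 12 markers in the table was 366 FPKM in Media, 566 with MRSA, 296 with PA and 307 with both species, and PLIN1, a lipid droplet protein, was listed at 0 in MRSA + PA. The part of fat cells in the CA3 values was not tested. UCP1, the defining gene of brown fat, was at most 0.0438 FPKM in any library.

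With PA, the log2 differences from Media were much larger and spread over a wide range. They ran from -3.25 for CA3 and -3.57 for FABP3 to -10.22 for MB and -11.81 for CKM, with a median of -6.86. Again 10 of the 10 genes were at least 2-fold lower and 0 higher, against 7.8% and 10% of all features, whose median difference was 0.07. CKM held 0.0182% of its Media level, MB 0.0755%, CKMT2 0.0871%, AMPD1 0.263%, COX6A2 0.357%, PGAM2 0.783% and ENO3 1.27%. FABP3 held 8.18% and CA3 10.5%. Where the level with PA was near or under the added 0.1 FPKM, as for CKM, CKMT2 and AMPD1, the log2 value depends on that amount. With 1 FPKM added, the median of the 10 genes was -5.97, and with 0.01 FPKM it was -7.56. Compared directly with MRSA, PA was at least 2-fold lower for 10 of the 10 genes and higher for 0, against 5.03% and 3.54% of all features. The differences ran from -1.26 for CA3 to -10.48 for CKM.

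**Figure D2:**
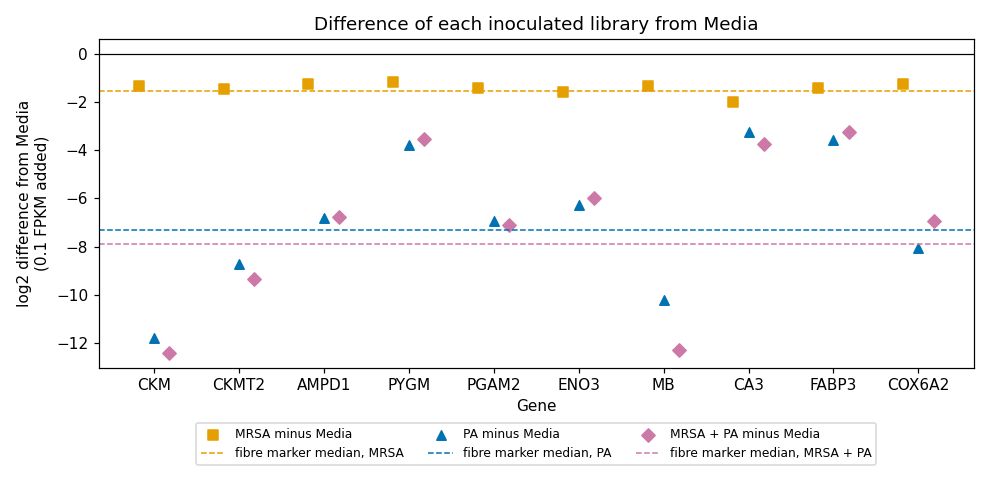
Log2 difference of each of the 10 genes from Media in MRSA, PA and MRSA + PA (0.1 FPKM added to both values), 1 point per gene and comparison; dashed lines give the median of 29 markers of skeletal muscle fibres. MRSA points stay between -1.16 and -1.99, while PA points run from -3.25 to -11.81; the MRSA + PA point of CKMT2 stands for a value listed at 0, and its height is set by the added 0.1 FPKM.

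With MRSA + PA, the 10 genes stood close to their levels with PA. The log2 differences from Media had a median of -6.87, again with 10 of 10 genes at least 2-fold lower and 0 higher, against 7.83% and 7.78% of all features. FABP3 at -3.26, PYGM at -3.52 and CA3 at -3.73 lay nearest to Media, and CKM at -12.40 and MB at -12.27 lay farthest among genes above 0. Against MRSA alone, 10 of the 10 were at least 2-fold lower and 0 higher, against 5.73% and 1.61% of all features, with a range from -1.74 for CA3 to -11.07 for CKM.

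A direct comparison of MRSA + PA with PA separated few of the genes. COX6A2 was higher in MRSA + PA by 1.09 (log2), and MB was lower by 2.06, and these were the genes at least 2-fold apart. Thus 1 of 10 genes was higher, against 2.5% of all features, and 1 was lower, against 4.27%. The median difference of the 10 genes was -0.08, and that of all features was -0.03. AMPD1 differed by 0.01, PGAM2 by -0.17, PYGM by 0.27, ENO3 by 0.28 and FABP3 by 0.31. Both genes called apart stood at under 4 FPKM in these libraries, and with 1 FPKM added neither was called. Housekeeping scaling also ended the call of COX6A2.

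The 10 genes were next set beside 29 markers of skeletal muscle fibres, the contractile and calcium-handling proteins. The median difference of the fibre markers from Media was -1.55 with MRSA, -7.31 with PA and -7.87 with both species. All 29 averaged at least 1 FPKM, some of them, such as MYH7 and MYOM2, only through Media and MRSA. In MRSA, 26 of the 29 markers lay at least 2-fold below Media, and in PA and MRSA + PA 29 did. For this count and those of the cell type lists that follow, the background is the share of all features given above for each library. Their summed level was 10857 FPKM in Media and 4163 with MRSA, and 211 with PA and 194 with both species, and 6 of the 29 were listed at 0 in MRSA + PA. In MRSA the 10 genes lay between -0.45 (CA3) and 0.39 (PYGM) relative to the fibre median. In PA, CKM lay at -4.49 relative to the fibre median (log2) and MB at -2.90, whereas CA3 lay at 4.06, FABP3 at 3.75 and PYGM at 3.53. The last 3 gaps shrink when 1 FPKM is added instead of 0.1 FPKM. The difference from Media in PA was then -5.13 for the fibre median, -3.20 for CA3, -3.22 for FABP3 and -3.67 for PYGM. MYLPF, a fast regulatory light chain, had 1948 FPKM in Media, against 830.0 with MRSA, 1.46 with PA and 0.580 with both species. TPM2, a tropomyosin that smooth muscle also uses, lay nearest to Media of the 29 in PA and MRSA + PA, though not in MRSA, with 496 FPKM in Media, 261 with MRSA, 185 with PA and 176 with both species.

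Of 6 heart muscle markers in the table, 1 averaged at least 1 FPKM. This was TNNT2, the cardiac troponin T that immature skeletal muscle also uses, which was at least 2-fold higher in each inoculated library, with 0.558 FPKM in Media, 1.82 with MRSA, 5.04 with PA and 3.65 with both species. The defining genes of heart were near 0: MYH6, the atrial myosin, was at most 0.0581 FPKM, and NPPA, the atrial natriuretic peptide, was listed at 0 in the 4 libraries. Of 8 smooth muscle markers, 3 were at least 2-fold lower in MRSA and 2 each in PA and MRSA + PA. These calls include DES in each inoculated library, which is also on the list of skeletal muscle fibre markers. ACTA2, smooth muscle actin, had 148 FPKM in Media and 72.4 with MRSA, and 147 with PA and 110 with both species.

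Of 11 epithelial markers, 1 was at least 2-fold lower in each inoculated library (BPIFA1 with MRSA and with PA, DNAH5 with both species), and 0 were higher with MRSA, 4 with PA and 1 with both species, with list medians of 0.19, 0.11 and -0.10. EPCAM, an epithelial surface protein that marks the mucosa, stood at 237 FPKM in Media, against 266 with MRSA, 254 with PA and 222 with both species. KRT14, a keratin of basal cells, had 136 FPKM in Media and 161 with MRSA, and 483 with PA and 256 with both species. BPIFA1, a secreted airway protein and the most abundant of the 11, had 25725 FPKM in Media, against 11118 with MRSA, 7472 with PA and 13362 with both species. Markers of other cell types differed between the libraries as well. Of 9 leukocyte markers, 6 exceeded Media at least 2-fold in MRSA and 5 each in PA and MRSA + PA, and 0, 1 and 1 were lower. The lower one was LYZ2, lysozyme of myeloid cells, with 9.62 FPKM in Media, 106 with MRSA, 0.731 with PA and 0.850 with both species. PTPRC, the common leukocyte antigen, had 18.7 FPKM in Media, 61.3 with MRSA, 64.3 with PA and 56.9 with both species. Of 5 erythroid markers, 5 were at least 2-fold lower in each inoculated library, with list medians of -2.17, -3.33 and -2.22. The summed level of the leukocyte markers was 415 FPKM in Media and between 682 and 793 in the inoculated libraries, and that of the erythroid markers was 11602 FPKM in Media and between 1166 and 2266. None of these markers was listed at 0 in any library. The part of these cell types, and of how much tissue was scraped, in the muscle values was not tested.

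Most of the 10 genes have a relative that performs the same reaction in other tissues, and these relatives mostly stood closer to Media. FABP5 did not in MRSA, where it differed from Media by 2.71 (log2) and FABP3 by -1.44. Of 14 relatives in the table, 0 were at least 2-fold lower than Media in any inoculated library, and 2 were higher in MRSA (FABP4 and FABP5), 1 in PA and 1 in MRSA + PA (FABP5). Among all features, 4.95% were lower and 8.47% higher with MRSA, 7.8% and 10% with PA, and 7.83% and 7.78% with both species. The counts of relatives lie near these shares. Under other scalings CA2 passed 2-fold lower, with housekeeping scaling in MRSA and PA, with equal sums in MRSA and with median-of-ratios scaling in PA. FABP4 was no longer called higher in MRSA with equal sums or housekeeping scaling, and PYGL was called higher in PA with equal sums over features of at least 300 bp. CKB, the brain-type creatine kinase, had 399 FPKM in Media and 414 with MRSA, and 298 with PA and 643 with both species. CKM made up 72.04% of the FPKM of CKM and CKB together in Media, against 49.7% with MRSA, 0.0628% with PA and 0.0140% with both species. Such a share is formed within a library and does not depend on how libraries are scaled. The cytosolic creatine kinase RNA of the libraries with PA was thus almost entirely of the brain type.

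Cytochrome c oxidase showed a similar pattern. COX6A1, the form of most tissues, had 484 FPKM in Media, 495 with MRSA, 459 with PA and 520 with both species. The share of COX6A2 in the pair was 46.7% in Media and 26.5% with MRSA, and 0.329% with PA and 0.636% with both species. The summed level of the pair was 908 FPKM in Media and 460 in PA, so that the total was also lower where the muscle form was nearly absent.

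ENO1 and PGAM1, the general forms of the glycolytic enzymes ENO3 and PGAM2, were above Media in each inoculated library under every scaling tried, though by under 2-fold. With housekeeping scaling little of this excess was left. The log2 differences in MRSA, PA and MRSA + PA were then 0.09, 0.35 and 0.07 for ENO1 and 0.02, 0.13 and 0.05 for PGAM1. ENO1, the enolase of most tissues, had 158 FPKM in Media, against 216 with MRSA, 240 with PA and 222 with both species. The share of ENO3 among ENO1, ENO2 and ENO3 was 65.3% in Media, 31.6% with MRSA, 1.57% with PA and 2.02% with both species. PGAM1 had 103 FPKM in Media and 135 with MRSA, and 134 with PA and 142 with both species, and the share of PGAM2 beside it was 72.4%, 42.7%, 1.56% and 1.29% in the same order. The table holds 12 rows named ENO1 and 4 named PGAM1, of which the highest was used. Reads shared with such copies may be divided among them, so these levels are uncertain. Summing all rows of a name left each share within 1.5 times its value.

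PYGM kept a larger share of its family than these enzymes. PYGB and PYGL, the brain and liver phosphorylases, together had 61.4 FPKM in Media, against 70.5 with MRSA, 76.2 with PA and 74.9 with both species. The share of PYGM was 69.8% in Media, 47.4% with MRSA, 11.8% with PA and 14.1% with both species. For AMP deaminase, the share of AMPD1 beside AMPD2 and AMPD3 was 37.2%, 20.2%, 0.134% and 0.147% in the same order.

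Relatives with other functions gave a more varied picture. FABP5, the epidermal fatty acid-binding protein, had 50.9 FPKM in Media and 334 with MRSA, and 255 with PA and 204 with both species, and FABP4 of fat cells and macrophages had 113, 264, 113 and 106 FPKM. The share of FABP3 among the 3 was 17.5% in Media, against 2.09% with MRSA, 0.768% with PA and 1.13% with both species. In this family the summed level was higher than Media in each inoculated library, by 1.62, 0.90 and 0.66 (log2). CA2, a carbonic anhydrase of red cells, osteoclasts and epithelia, had 68.7 FPKM in Media, 38.1 with MRSA, 35.7 with PA and 80.0 with both species. CA3 made up 76.4% of the pair in Media and 59.4% with MRSA, and 39.5% with PA and 17.3% with both species, the largest share left in PA among the 10 genes. CKMT1, the mitochondrial kinase of other tissues, stood between 6.67 and 13.9 FPKM, and CYGB, a globin of fibroblasts, between 22.5 and 34.9 FPKM.

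**Figure D3:**
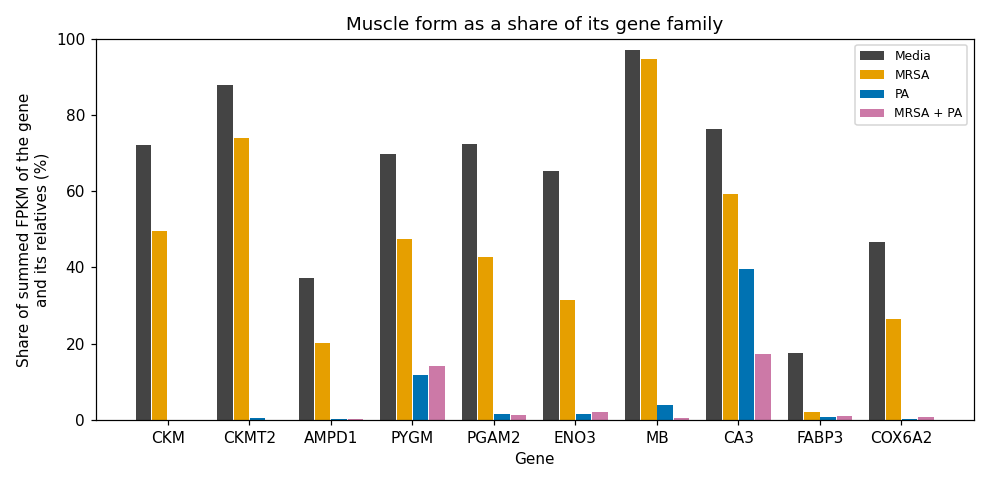
Share of each of the 10 genes in the summed FPKM of the gene and its relatives (percent, bars from 0), in the 4 libraries. The relatives are CKB for CKM, CKMT1 for CKMT2, AMPD2 and AMPD3 for AMPD1, PYGB and PYGL for PYGM, PGAM1 for PGAM2, ENO1 and ENO2 for ENO3, CYGB for MB, CA2 for CA3, FABP4 and FABP5 for FABP3 and COX6A1 for COX6A2; in PA only CA3 (39.5%) and PYGM (11.8%) kept more than 5%.

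The wider pathways around the 10 genes lay nearer to Media as lists, with single muscle genes far below. The share of all features 2-fold apart, given above, is the background for these counts. The 10 genes were left out of these lists. All the relatives above except CA2 and CYGB are in them, so the list counts partly repeat those of the relatives. Of 12 genes of creatine and adenylate handling, 1 was at least 2-fold lower than Media with MRSA, 2 with PA and 2 with both species, and 0 were higher. The list medians were -0.07, -0.12 and -0.16. ADSSL1, the muscle adenylosuccinate synthetase that works in a cycle with AMPD1, had 65.4 FPKM in Media, against 30.1 with MRSA, 9.32 with PA and 10.4 with both species. AK1, the cytosolic adenylate kinase, had 46.7 FPKM in Media, 24.6 with MRSA, 13.0 with PA and 17.0 with both species. Neither stood as far below Media as AMPD1.

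Of 13 genes of glycogen use, 3 were at least 2-fold lower with MRSA, 5 with PA and 6 with both species, and 0 were higher, with list medians of -0.45, -0.72 and -0.999. PHKG1, the catalytic subunit of muscle phosphorylase kinase, which switches PYGM on, had 14.3 FPKM in Media and 4.47 with MRSA, and 0.331 with PA and 0.295 with both species. PPP1R3A, which brings a phosphatase to muscle glycogen, had 5.55 FPKM in Media and 1.97 in MRSA, and was listed at 0 in PA and MRSA + PA. Both regulators thus stood further below Media than PYGM. GYG1, the primer of glycogen, was closer to Media, with 43.8, 32.0, 26.5 and 21.9 FPKM in the 4 libraries.

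Of 20 genes of glycolysis and lactate transport, 3 were at least 2-fold lower with MRSA, 4 with PA and 4 with both species, and 0 were higher. The list medians were 0.08, -0.03 and 0.03. GPD1, which shuttles electrons from glycolysis to mitochondria, had 25.1 FPKM in Media, against 8.26 with MRSA, 0.377 with PA and 0.299 with both species. ALDOA, the aldolase of muscle and many other tissues, had 653 FPKM in Media, 424 with MRSA, 292 with PA and 316 with both species. PKM, pyruvate kinase, stood above Media in each inoculated library, save with both species under housekeeping scaling, with 220.4 FPKM in Media and 293 with MRSA, and 326 with PA and 291 with both species.

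Of 16 genes of fatty acid uptake and oxidation, 3 were at least 2-fold lower in each inoculated library, and 4 were higher with MRSA, 2 with PA and 1 with both species. The list medians were -0.05, -0.27 and -0.26. UCP3, an uncoupling protein of muscle mitochondria, had 16.2 FPKM in Media, against 2.71 with MRSA, 0.327 with PA and 0.0918 with both species. CPT1B, the muscle form of the enzyme that admits long-chain fats to mitochondria, had 7.27 FPKM in Media, 2.55 with MRSA, 0.724 with PA and 0.549 with both species. ACADL, an enzyme of fat oxidation in many tissues, was nearer to Media, with 134, 128, 99.6 and 91.2 FPKM in the 4 libraries.

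Of 15 mitochondrial genes, 1 was at least 2-fold lower with MRSA, 3 with PA and 3 with both species, and 0 were higher, with list medians of -0.15, -0.37 and -0.33. COX8B, another muscle form of a cytochrome c oxidase subunit, had 456 FPKM in Media and 204 with MRSA, and 1.12 with PA and 1.32 with both species, close to COX6A2 in every library but MRSA + PA. COX8A, its counterpart in most tissues, had 498 FPKM in Media, against 533 with MRSA, 386 with PA and 535 with both species. PPARGC1A, a coactivator that drives mitochondrial genes, had 2.46 FPKM in Media, 1.30 with MRSA, 0.658 with PA and 1.01 with both species.

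**Figure D4:**
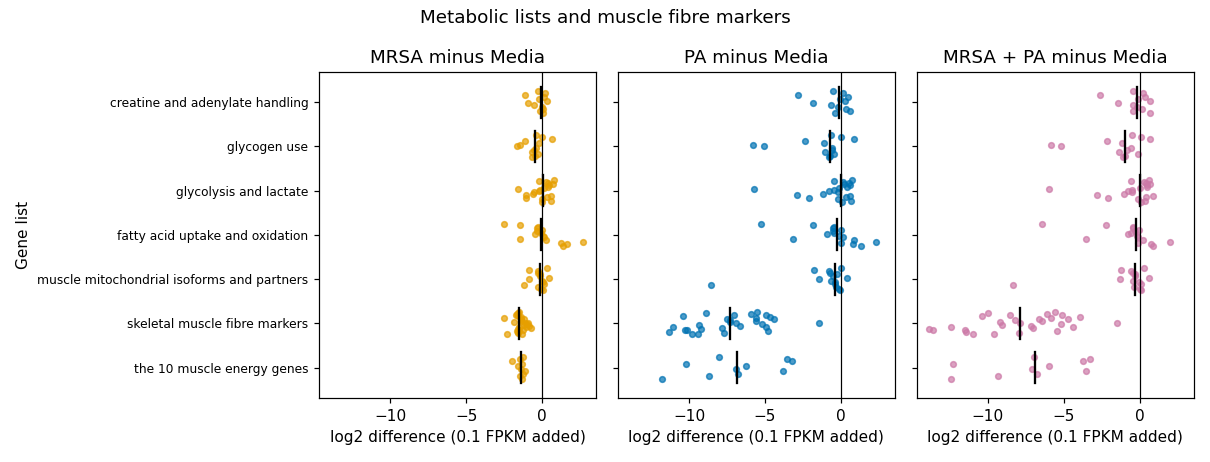
Log2 difference from Media (0.1 FPKM added) for every gene of 5 metabolic lists, of the skeletal muscle fibre markers and of the 10 genes, 1 panel per inoculated library; each point is a gene and the black bar is the list median. The metabolic lists centre between -0.999 and 0.08 with a few genes far to the left, whereas the fibre markers and the 10 genes centre at -7.31 and -6.86 in PA.

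The features most like 3 of the 10 genes were sought by the distance between their log2 differences from Media over the 3 inoculated libraries, among 10308 features that carry a gene name and average at least 5 FPKM. These 3 differences share the Media library, and the distance describes only these 4 libraries. Nearest to CKM were TNNC2, MYH4, SLN, MYLPF and MYL1, at distances of 0.75 to 2.06. TNNC2, the calcium sensor of fast fibres, had 1698 FPKM in Media and 581 with MRSA, and 0.682 with PA and 0.213 with both species. Nearest to FABP3 were PDLIM3, RETN, CRYAB, TMEM52 and ANKRD23, at 0.12 to 0.36. RETN, a hormone of fat cells, had 27.5 FPKM in Media, against 9.22 with MRSA, 2.24 with PA and 3.25 with both species, and CRYAB, a small heat shock protein of muscle and lens, had 108, 43.1, 10.1 and 12.6 FPKM. Nearest to CA3 were CHAD, NECAB1, MARK4, FMOD and CES1E, at 0.46 to 0.67. CHAD and FMOD are matrix proteins of cartilage and tendon, and FMOD had 277 FPKM in Media, 96.6 with MRSA, 31.7 with PA and 15.5 with both species. The genes nearest to CKM were thus fibre proteins, whereas those nearest to CA3 were of other kinds. SLN was listed at 0 in PA and MRSA + PA, and MYH4 and MYL1 at 0 in MRSA + PA. Distances from CKM therefore depend on the added 0.1 FPKM. MARK4, among those nearest to CA3, overlaps CKM and may hold some of its reads.

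For 2 of the 10 genes another feature of the table overlaps on the opposite strand. MARK4, a kinase of the microtubule system, overlaps CKM by 1792 bp and had 77.3 FPKM in Media and 29.2 with MRSA, and 7.18 with PA and 6.21 with both species. Its log2 differences from Media were -1.40, -3.41 and -3.62. The counting is not stated to use strand, so reads of CKM and MARK4 in the shared stretch cannot be told apart. ZCCHC17 overlaps FABP3 by 94 bp and differed from Media by 0.15, -0.08 and 0.19.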

How the data were processed

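Polyadenylated RNA of rat middle ear mucosa was sequenced by the authors, 1 library per condition. The authors removed low-quality reads, mapped the rest with STAR 2.3.0e and estimated expression with Cufflinks 2.1.1 on Ensembl release annotation, with multi-read and fragment bias correction. Their methods name a human reference, whereas the gene descriptions and positions in the table are those of rat. The deposited FPKM values of 27832 features were used as they stand. FPKM gives no read counts, so the depth behind each value is unknown and no interval was formed. The authors' 3 deposited comparison tables hold their fold changes, p-values and q-values with the same libraries' levels, and were not used.

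Each name was represented by its row with the highest mean FPKM. Log2 ratios were formed after adding 0.1 FPKM, for the 6 pairs of libraries. Called means at least 2-fold apart, and the background is the same call over 15944 features averaging at least 1 FPKM. No test was made. The genes and the 13 lists were chosen with earlier results of these data known. Genes named are the 10 genes, their relatives, and by level or difference members of each list, some of which are left out. PLIN1, ADIPOQ, MYH6, NPPA, UCP1, TPM2, LYZ2, DNAH5, COX7A1 and SLC25A4 were named after their values were seen. Alternatives were other amounts added, other scalings, filters and thresholds, and all rows of a name summed. Equal sums over features of at least 300 bp was added after seeing the data. The arithmetic was tested on simulated data. Python 3.11.15, numpy 2.4.6, pandas 2.3.3 and matplotlib 3.10.9 were used.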

Additional observations from a re-analysis of the deposited data

How the results depend on the processing

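The 10 genes stayed below Media in the 3 inoculated libraries under all 11 alternatives, but none of these could have reversed that direction. Thresholds and filters do not enter a difference, and each gene has 1 row to sum. An added amount cannot change a sign. The scalings shifted differences from Media by at most 0.42 (log2), less than the smallest difference, -1.16 for PYGM in MRSA. The 420 values of single genes under the alternatives include 60 from summing rows, which could not move. Of the 420, 388 moved by no more than 1.5-fold and 32 moved further, all with another amount added. Only 3 changed sign, each a small difference between MRSA + PA and PA: that of PGAM2 from -0.17 to 0.02 with equal FPKM sums, and that of AMPD1 from 0.01 to -0.04 with housekeeping scaling and to -0.03 with equal sums over features of at least 300 bp. With 1 FPKM added, the median difference of the 10 genes was -5.97 in PA and -5.90 in MRSA + PA against Media, and -4.48 and -4.40 against MRSA. The fibre marker median was then -5.13 in PA and -5.24 in MRSA + PA. With 0.01 FPKM added, the median of the 10 genes was -7.56 in PA against Media and -6.22 against MRSA, and the fibre marker median in MRSA + PA was -8.75. Against PA, MRSA + PA was then at least 2-fold lower for 2 of the 10 genes, and at a threshold of 1.5-fold for 3. With 1 FPKM added, 0 were lower and 0 higher. The call of COX6A2 as higher was also lost, leaving 0, with housekeeping scaling, with equal sums over features of at least 300 bp and at a log2 threshold of 1.5. At that threshold 2 of the 10 genes remained called lower in MRSA.

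The background counts moved more. As deposited, 789, 1243, 1249, 802, 914, 681 and 399 features were called, in the order lower in MRSA, PA and MRSA + PA than Media, in PA and MRSA + PA than MRSA, in MRSA + PA than PA, and higher in MRSA + PA than PA. They were 1692, 2373, 2285, 1637, 1683, 1594 and 940 at 1.5-fold, 331, 706, 721, 482, 501, 380 and 201 at a log2 difference of 1.5, 2024, 2638, 2780, 1638, 1961, 1816 and 925 without a filter and 355, 596, 560, 398, 425, 273 and 189 with a mean of at least 5 FPKM. With 1 FPKM added, 593 were lower in MRSA + PA than MRSA, 433 lower in MRSA + PA than PA and 260 higher. With equal FPKM sums, 1248 were lower in MRSA than Media and 534 in MRSA + PA than MRSA, and with housekeeping scaling 1533 were lower in MRSA and 2304 in MRSA + PA than Media. A threshold or filter sets such a count directly, and an added amount or a scaling changes it by moving the ratios. Housekeeping scaling shifted all differences from Media by -0.36 for MRSA, -0.25 for PA and -0.42 for both species, and equal sums by -0.27, -0.02 and 0.18. No paired analysis was possible because each condition has 1 library. Leaving out a library was not possible for the same reason. The number of reads behind values near 0, as for CKM, CKMT2 and AMPD1 with PA, is unknown.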

Other observations

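Beside COX6A2 and COX8B, the subunit gene COX7A1, whose product is also counted among the muscle forms of cytochrome c oxidase, had 14.6 FPKM in Media, against 13.6 with MRSA, 13.3 with PA and 14.9 with both species. It thus stayed near its Media level in libraries where COX6A2 was at or under 3.33 FPKM. SLC25A4, the adenine nucleotide carrier prominent in muscle and heart, had 609.7 FPKM in Media, 335 with MRSA, 223 with PA and 243 with both species. Both COX7A1 and SLC25A4 were chosen after their values were seen.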
